A study of Mus musculus with 12 samples.

Results

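The abundance of 9 neutrophil transcripts was followed in the gastrocnemius, a calf muscle, and in the hypothalamus, the brain region that regulates appetite and energy balance, of cachectic and normal mice. The genes were a named list, S100a8, S100a9, Ngp, Retnlg, Cxcr2, Mmp8, Csf3r, Il1b and Chil3, matched by symbol on the mouse build GRCm38. All 9 were found among the 55416 gene identifiers of the series. The cachectic group was 3 male BALB/c mice with tumours of CT-26, a mouse colon carcinoma line, grown under the abdominal skin, and the normal group was 3 male BALB/c mice without tumour. Mice of both groups are labelled 7 weeks old, and tissue collection on day 25 after injection is stated for the tumour-bearing mice only. Both tissues of each mouse were sequenced, which gave 12 libraries in 4 groups of 3. All tumours came from a single cell line, and the labels do not say whether the mice were perfused before the tissues were frozen. The abundance of a transcript in such bulk tissue cannot separate more cells of a type from more RNA per cell.

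Neutrophils are short-lived white blood cells made in the bone marrow under the control of granulocyte colony-stimulating factor, which acts on the receptor encoded by Csf3r. While they mature they fill granules with antimicrobial proteins and proteases in a fixed sequence, and the chemokine receptor CXCR2 guides them out of the marrow and into inflamed tissue. S100A8 and S100A9 form calprotectin, which makes up much of the cytosolic protein of the mature cell, and circulating neutrophils are normally kept out of healthy brain by the blood-brain barrier. None of the 9 genes is read in neutrophils alone: monocytes also express S100a8, S100a9, Il1b and Chil3, and macrophages and microglia can express Il1b.

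The genes lie on 6 chromosomes, and all are protein coding. S100a8 (ENSMUSG00000056054, chr3:90668978-90670035, plus strand) and S100a9 (ENSMUSG00000056071, chr3:90692632-90695721, minus strand) are neighbours, with 22596 bases between them, and are read toward each other. Chil3 (ENSMUSG00000040809, chr3:106147554-106167564, minus strand) is on the same chromosome. The others are Ngp (ENSMUSG00000032484, chr9:110419747-110423012, plus strand), Mmp8 (ENSMUSG00000005800, chr9:7558456-7568485, plus strand), Retnlg (ENSMUSG00000022651, chr16:48872621-48874496, plus strand), Cxcr2 (ENSMUSG00000026180, chr1:74153989-74161246, plus strand), Csf3r (ENSMUSG00000028859, chr4:126024550-126044440, plus strand) and Il1b (ENSMUSG00000027398, chr2:129364570-129371139, minus strand). These positions span each whole gene in the GENCODE M21 annotation of GRCm38. Il1b overlaps an antisense gene, Il1bos, which was at 0.04 TPM or less in every library. Chil4, a close copy of Chil3, was at 0 TPM in all 12 libraries.

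The sequences just upstream of the 4 transcripts with the highest mean TPM in the cachectic libraries are shown because these genes rose together in both tissues. They are from RefSeq on GRCm38.p6, written 5′ to 3′ on the gene's own strand, and end before the first transcribed base in both RefSeq and GENCODE. Capitals mark matches on either strand to TTNNGNAA, a short form of the site of C/EBP factors, and to GAGGAA, a core bound by PU.1, 2 factor families of granulocyte development; a GAGGAA on the opposite strand reads TTCCTC.
S100a8 (chr3:90668821-90668977, plus strand): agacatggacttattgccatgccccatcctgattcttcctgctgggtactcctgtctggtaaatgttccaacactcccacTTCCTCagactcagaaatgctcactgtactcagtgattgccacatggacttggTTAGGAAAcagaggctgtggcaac
S100a9 (chr3:90695722-90695971, minus strand): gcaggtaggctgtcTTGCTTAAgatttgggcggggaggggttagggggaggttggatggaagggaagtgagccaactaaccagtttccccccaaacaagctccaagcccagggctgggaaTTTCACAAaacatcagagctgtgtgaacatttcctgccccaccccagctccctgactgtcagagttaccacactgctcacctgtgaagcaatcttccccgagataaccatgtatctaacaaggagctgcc
Ngp (chr9:110419558-110419746, plus strand): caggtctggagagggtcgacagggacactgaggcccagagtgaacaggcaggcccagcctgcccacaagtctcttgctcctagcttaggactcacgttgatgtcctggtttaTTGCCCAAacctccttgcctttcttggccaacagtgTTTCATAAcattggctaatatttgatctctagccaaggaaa
Retnlg (chr16:48872358-48872607, plus strand): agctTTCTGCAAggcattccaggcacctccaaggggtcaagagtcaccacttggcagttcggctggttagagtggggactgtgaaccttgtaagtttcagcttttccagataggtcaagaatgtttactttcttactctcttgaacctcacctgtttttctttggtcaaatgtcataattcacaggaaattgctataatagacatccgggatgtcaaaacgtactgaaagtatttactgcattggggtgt
Over windows from 250 bases before to 50 bases after the RefSeq start, all 9 genes had an entry. TTNNGNAA was found in 7 of the 9 windows, against 40.7% of all 32851 mouse windows of the same length. GAGGAA was found in 4 of 9, against 28.3% of all windows, and the TATA box letters TATAAA in 5 of 9, against 13.6%. In the printed parts S100a8 held a C/EBP match at positions -117 to -110 and S100a9 held matches at -236 to -229 and -130 to -123, counted from the RefSeq start. No match overlapped a match to another of the 3 motifs. These are descriptions of letters in a window and were not tested.

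Library totals ran from 26015741 to 52535761 expected counts. The labelled tissues matched their markers: 10 skeletal muscle genes summed to between 61710 and 110000 TPM in the gastrocnemius and between 21.9 and 53.1 TPM in the hypothalamus, and 13 hypothalamic and neuronal genes to between 4840 and 8412 TPM in the hypothalamus and at most 4.40 TPM in the gastrocnemius. Levels are given in TPM, transcripts scaled to a common total after division by transcript length, and in the order mouse 1, mouse 2, mouse 3. Mice of the 2 groups that carry the same number are different animals. Fold changes are on the log2 scale, cachectic over normal, with their standard error (SE). They were fitted to scaled counts, so a fold taken from the TPM values can differ. Changes were called at an adjusted p under 0.05 (edgeR's quasi-likelihood test, Benjamini-Hochberg adjustment over all genes tested).

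In the gastrocnemius all 9 transcripts were higher in the cachectic mice, and in the hypothalamus 8 of 9 were, with Csf3r the exception. Of all genes tested, 19.6% were called higher and 18.3% lower in the gastrocnemius, and 3.94% higher and 4.83% lower in the hypothalamus. The median log2 change of the 9 genes was 6.55 in muscle and 5.70 in the hypothalamus, or 5.68 there with Cxcr2, which had no counts in normal mice, set at its lower bound; the median of all genes tested was -0.002 and -0.003. Every cachectic library lay above every normal library for 9 of 9 genes in the gastrocnemius and 8 of 9 in the hypothalamus, in TPM; the same held for 40.9% and 10.5% of all genes tested. In each tissue 8 of the 9 genes were under the minimum count in all 3 normal libraries and entered the test only through the cachectic ones, so they had to differ and their count is no support.

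**Figure D1:**
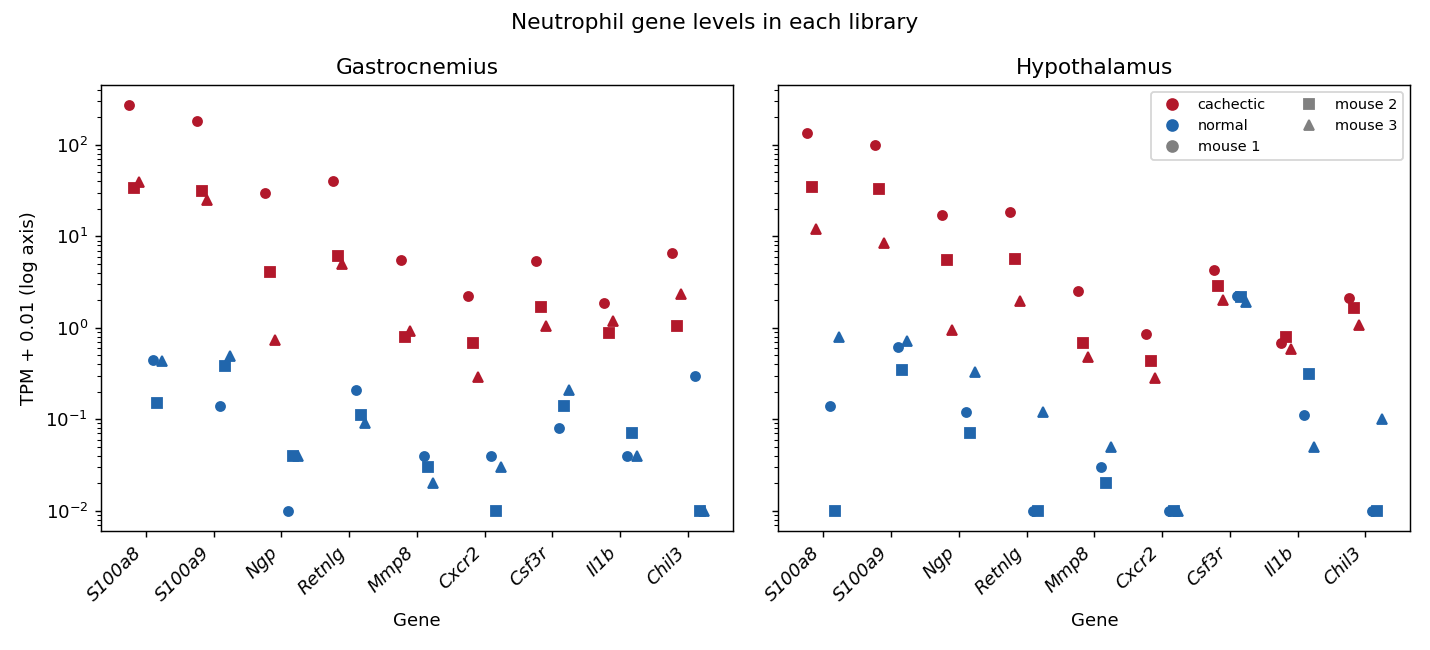
TPM of the 9 neutrophil genes in each of the 12 libraries, with 0.01 added and a log axis; red is cachectic, blue is normal, and the symbol gives the mouse. The cachectic points stand above the normal ones for every gene in the gastrocnemius, and in the hypothalamus for all but Csf3r, where the lowest cachectic mouse (1.99 TPM) lies among the normal mice (1.89 to 2.21 TPM).

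The calprotectin genes were the most abundant. S100a8 was at 272, 34.0 and 39.3 TPM in the cachectic gastrocnemius and at 0.44, 0.14 and 0.42 TPM in the normal gastrocnemius. Its hypothalamic levels were 137, 35.0 and 12.2 TPM in cachectic and 0.13, 0 and 0.78 TPM in normal mice. The lowest cachectic library was thus far above the highest normal one in either tissue, while cachectic mouse 1 stood well above the other two. In expected counts the 3 cachectic libraries together held 2855 against 8 in normal gastrocnemius and 1251 against 6 in normal hypothalamus. The log2 change was 7.80 ± 1.09 SE in the gastrocnemius (adjusted p = 0.001362) and 7.62 ± 1.23 SE in the hypothalamus (adjusted p = 0.005138).

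S100a9, its partner in calprotectin, was at 183, 31.5 and 25.0 TPM in cachectic and 0.13, 0.37 and 0.48 TPM in normal gastrocnemius. It was at 99.1, 32.7 and 8.46 TPM in cachectic and 0.60, 0.34 and 0.71 TPM in normal hypothalamus. It rose by 7.27 ± 1.00 SE on the log2 scale in the gastrocnemius (adjusted p = 0.001279) and by 6.30 ± 1.03 SE in the hypothalamus (adjusted p = 0.005299). S100a8 was the highest and S100a9 the second highest of the 9 genes in each of the 6 cachectic libraries. Together they made up 81.0% to 84.9% of the summed TPM of the 9 genes in the cachectic gastrocnemius and 74.0% to 83.6% in the cachectic hypothalamus. In normal hypothalamus they made up 11.9% to 37.4%, and Csf3r was the highest of the 9 in all 3 of those libraries.

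Ngp, which encodes neutrophilic granule protein and is read midway through maturation, varied most between mice in the gastrocnemius. It was at 30.2, 4.12 and 0.73 TPM in cachectic gastrocnemius against 0, 0.03 and 0.03 TPM in normal mice, and at 17.3, 5.51 and 0.93 TPM in cachectic hypothalamus against 0.11, 0.06 and 0.32 TPM. Groups did not overlap in either tissue, although cachectic mouse 3 came within a few fold of the highest normal hypothalamus. With only 2 expected counts over the normal gastrocnemius libraries, the count ratio there was 454.1, and its 95% counting interval reached from 125.4 to 3754. In the hypothalamus the log2 change was 5.58 ± 1.12 SE (adjusted p = 0.01425). That call was lost without normal mouse 2 (log2 5.17, adjusted p = 0.06676), and adjusted p ran from 2.015e-29 to 0.1013 over the alternatives.

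Mmp8, neutrophil collagenase, is a protease stored in granules filled later in maturation. It was at 5.49, 0.78 and 0.91 TPM in cachectic gastrocnemius and at 0.03, 0.02 and 0.01 TPM in normal gastrocnemius. Hypothalamic levels were 2.55, 0.67 and 0.47 TPM against 0.02, 0.01 and 0.04 TPM. The groups stood apart in both tissues, with log2 changes of 6.34 ± 1.03 SE (adjusted p = 0.002527) and 5.68 ± 0.93 SE (adjusted p = 0.005441). The hypothalamic call did not hold in every alternative, where adjusted p ran from 2.588e-23 to 0.09643.

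Of the secreted proteins, Retnlg, resistin-like gamma, was at 40.7, 6.17 and 4.96 TPM in cachectic and 0.20, 0.10 and 0.08 TPM in normal gastrocnemius. It was at 18.5, 5.58 and 1.94 TPM in cachectic hypothalamus and at 0, 0 and 0.11 TPM in normal hypothalamus. All cachectic libraries were again above all normal ones. The gastrocnemius change was 6.55 ± 1.10 SE on the log2 scale (adjusted p = 0.002923). In the hypothalamus 256 counts stood against 1, a ratio of 215.2 with a 95% counting interval from 38.3 to 8531.

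Chil3, a chitinase-like protein (Ym1) made by neutrophils, monocytes and some macrophages, differed less between the cachectic mice. It was at 6.53, 1.04 and 2.32 TPM in cachectic gastrocnemius and 2.10, 1.65 and 1.06 TPM in cachectic hypothalamus. In normal mice it had 1 count over the gastrocnemius libraries and 3 over the hypothalamus libraries. The count ratio was 331.2 (95% counting interval 59.1 to 13110) in the gastrocnemius and 55.2 (18.6 to 269.9) in the hypothalamus. Chil3 rose in both tissues (adjusted p = 0.001115 and 0.0006783, edgeR).

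Of the receptors, Cxcr2 encodes the main receptor through which neutrophils follow CXC chemokines. It was at 2.22, 0.68 and 0.28 TPM in cachectic gastrocnemius against 0.03, 0 and 0.02 TPM in normal mice, a log2 change of 5.54 ± 0.97 SE (adjusted p = 0.003367). In the hypothalamus it was at 0.84, 0.42 and 0.27 TPM, from 62, 30 and 39 counts, and no count was found in the 3 normal libraries. Against a floor of 3 counts over the normal group it was at least 36.7-fold higher in cachectic hypothalamus (edgeR adjusted p = 0.003311). Over the alternatives adjusted p there ran from 1.493e-19 to 0.05984, so the call did not hold in all of them. Cachectic mice 2 and 3 had more Cxcr2 counts per S100a8 count in the hypothalamus than mouse 1 had.

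Csf3r was the only one of the 9 genes to reach the minimum count in a normal library. It was at 2.21, 2.14 and 1.89 TPM in normal hypothalamus and at only 0.07, 0.13 and 0.20 TPM in normal gastrocnemius, and the groups did not overlap. In cachectic mice it was at 5.36, 1.70 and 1.05 TPM in the gastrocnemius and 4.33, 2.85 and 1.99 TPM in the hypothalamus. In the gastrocnemius it rose by 3.91 ± 0.59 SE on the log2 scale (adjusted p = 0.001857). In the hypothalamus the log2 difference was 0.66 ± 0.22 SE and was not called (adjusted p = 0.09083), and cachectic mouse 3 lay within the normal range. It was called there without that mouse (log2 0.91, adjusted p = 0.02), with DESeq2 (log2 0.67, adjusted p = 0.02448) and without the filter on low counts (log2 0.66, adjusted p = 0.0004301); adjusted p ran from 0.0004301 to 0.376 over all alternatives. The summed TPM of 8 microglia markers was 67.5 to 103.8 in cachectic and 91.9 to 94.1 in normal hypothalamus, none of the 8 was called there, and their part in the Csf3r level was not tested.

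Il1b encodes interleukin 1 beta, a fever- and sickness-inducing cytokine. It was at 1.87, 0.87 and 1.17 TPM in cachectic gastrocnemius against 0.03, 0.06 and 0.03 TPM in normal mice. Hypothalamic levels were 0.68, 0.79 and 0.58 TPM in cachectic mice against 0.10, 0.30 and 0.04 TPM. The cachectic libraries lay above all normal ones in both tissues. They lay close together in the hypothalamus and less so in the gastrocnemius (0.87 to 1.87 TPM). The log2 change was 4.42 ± 0.51 SE in the gastrocnemius (adjusted p = 0.0006643) and 2.56 ± 0.43 SE in the hypothalamus (adjusted p = 0.005902), the latter from 64 counts against 9. The hypothalamic Il1b call was lost in part of the alternatives (adjusted p from 1.818e-05 to 0.07129).

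**Figure D2:**
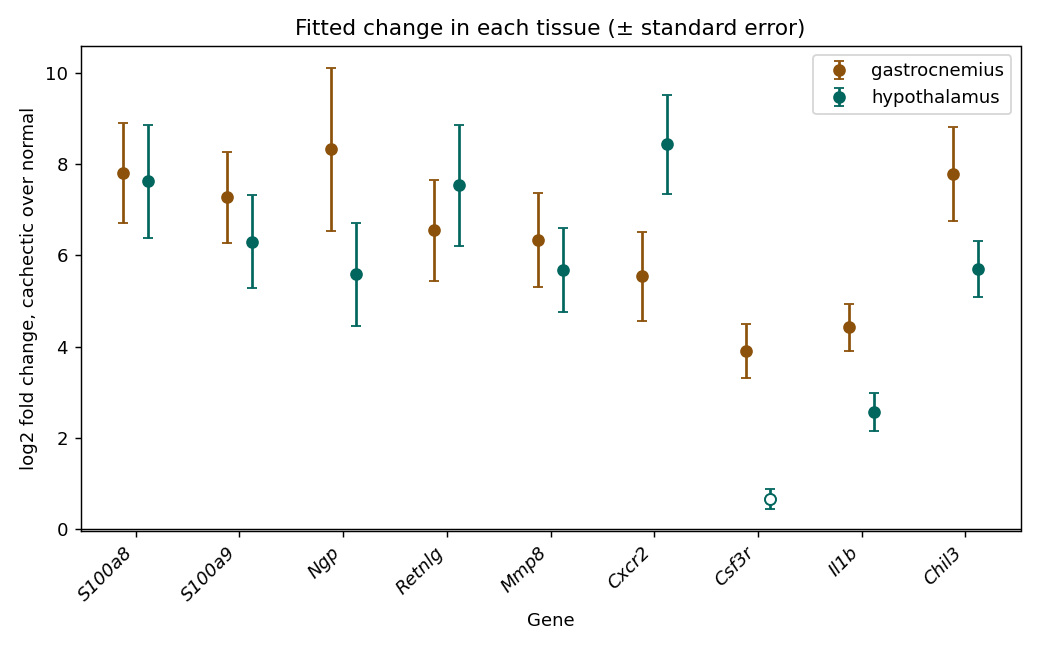
Fitted log2 fold change of each gene, cachectic over normal, in the gastrocnemius (brown) and the hypothalamus (green), with bars of 1 standard error; the open symbol is the one change that was not called, Csf3r in the hypothalamus. Changes ranged from 3.91 (Csf3r) to 8.33 (Ngp) in the gastrocnemius; the hypothalamic Cxcr2 value was fitted against 0 counts and depends on the model's prior count.

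The change of Csf3r differed between the tissues. Its log2 change in the gastrocnemius exceeded that in the hypothalamus by 3.24 ± 0.69 SE (interaction over all 12 libraries, edgeR adjusted p = 0.003986), and 12.4% of all genes tested were called in that direction and 14.0% in the other. It remained between 2.68 and 3.46 when any mouse was left out. On log2(TPM + 0.5), with limma, it was 1.69 and missed the threshold (adjusted p = 0.05295; 6.226e-06 to 0.05295 over the alternatives). For Il1b the difference was 1.90 ± 0.83 SE (adjusted p = 0.111, edgeR). The other 7 genes were not called either; their normal groups were near 0, and with standard errors between 2.45 for Cxcr2 and 5.66 for S100a8 a difference of several log2 units was not detectable.

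Set side by side within each cachectic mouse, the ratio of muscle to hypothalamus differed between mice and with the scaling. Mouse 1 had higher TPM in the gastrocnemius for 9 of 9 genes, with a median ratio of 2.15 and a range from 1.24 (Csf3r) to 3.11 (Chil3). In mouse 2 only 4 of 9 genes were higher in the gastrocnemius, and the median ratio was 0.97. In mouse 3 the ratio was above 1 for 7 of 9, with a median of 2.02, and Ngp (0.785) and Csf3r (0.528) were the exceptions. With TMM scaling all 9 ratios were above 1 in each of the 3 mice, with medians of 3.92, 2.42 and 4.15. The share of all genes with a ratio above 1 was not counted, so these counts are descriptions only. The TPM ranges of the tissues overlapped in cachectic mice for 8 of 9 genes. The share over all genes was not counted. Il1b alone was higher in all 3 cachectic gastrocnemius libraries (0.87 to 1.87 TPM) than in any cachectic hypothalamus library (0.58 to 0.79 TPM).

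How far the tissues differed rested on the scaling. With TMM factors, which leave out the genes with extreme ratios, 7 of 9 genes were called higher in the cachectic gastrocnemius than in the hypothalamus, where 37.1% of all genes were called higher and 48.0% lower; Ngp (log2 1.55, adjusted p = 0.1377) and Csf3r (log2 0.85, adjusted p = 0.05783) were not. With library totals, 1 of the 9 was called, with DESeq2 4, and on log2(TPM + 0.5) 1. Over all genes 3490 of 18746, 6875 of 18746 and 3793 of 22773 were called higher at these settings. The median of all genes moved from -0.32 with TMM to -1.42 with totals. Csf3r changed direction, to -0.25 with totals. Pairing the tissues by mouse gave 9 calls of 9, and 6754 of 18746 genes were called higher in that fit. Ngp was then at 1.16 (edgeR adjusted p = 0.0008114) and Csf3r at 0.65 (edgeR adjusted p = 0.02039). Over all alternatives adjusted p ran from 0.0008114 to 0.9858 for Ngp and from 0.01506 to 0.5543 for Csf3r. In normal mice, Csf3r was lower in the gastrocnemius by 2.40 on the log2 scale (log2 -2.40 ± 0.56 SE, adjusted p = 0.001375), 47.7% of all genes being called lower. None of the other 8 was called there by edgeR, none had an unadjusted p under 0.05, and 35.7% of all genes were called higher; DESeq2 called 1 of the 9 higher and the fit paired by mouse called 2.

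**Figure D3:**
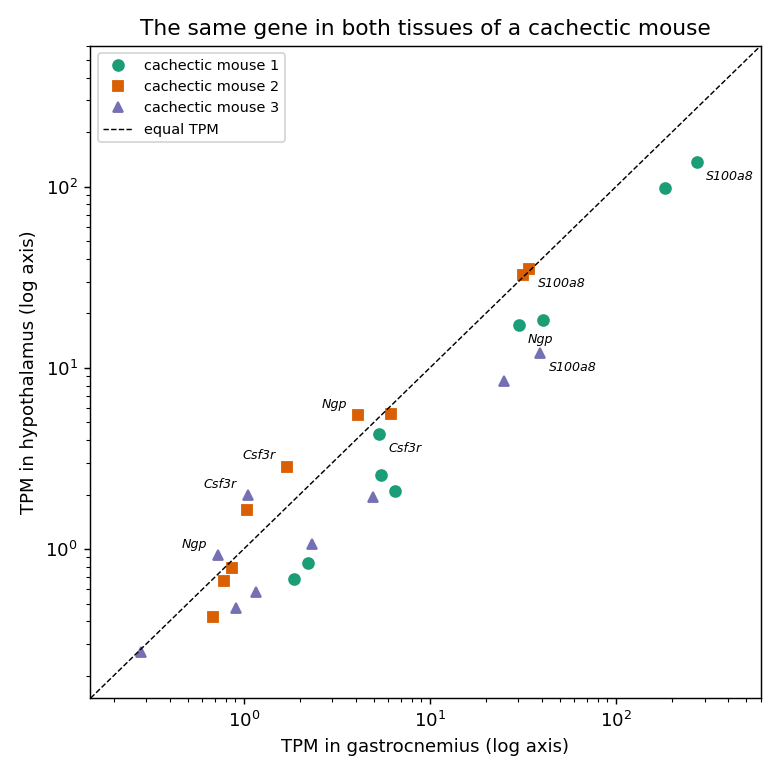
TPM of each gene in the gastrocnemius (horizontal) and the hypothalamus (vertical) of the same cachectic mouse, both on log axes, with the line of equal TPM. Mouse 1 lies below the line for all 9 genes; S100a8 in mouse 2 lies close to it, at 34.0 and 35.0 TPM.

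Cachectic mouse 1 led in both tissues for most of the 9 genes. Mouse 1 had the highest TPM for 9 of 9 genes in the gastrocnemius and 8 of 9 in the hypothalamus. Il1b, with 20, 17 and 27 counts in the cachectic hypothalamus, was highest there in mouse 2 in TPM. In CPM mouse 1 was the highest for 9 of 9 genes in each tissue. Among all genes tested, cachectic mouse 1 was the highest for 33.3% in the gastrocnemius and 34.9% in the hypothalamus, in CPM. The summed TPM of the 9 genes was 548, 80.8 and 75.7 in the cachectic gastrocnemius and 282, 85.2 and 27.8 in the cachectic hypothalamus. In the normal mice it was 0.85 to 1.27 and 2.85 to 3.98. In TPM mouse 2 was above mouse 3 for 9 of 9 genes in the hypothalamus and for 5 of 9 in the gastrocnemius. In CPM it was above mouse 3 for 9 of 9 and 6 of 9. Each level is from 1 library, and the share of all genes with this order was not counted.

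The lead of mouse 1 differed by gene. It was largest for Ngp in the gastrocnemius, at 12.4 times the mean TPM of mice 2 and 3, and 5.37 times in the hypothalamus. For S100a8 it was 7.43 and 5.80 times, and for Retnlg 7.32 and 4.92 times. It was small for Chil3 in the hypothalamus (1.55 times) and for Il1b (1.83 times in the gastrocnemius and 0.993 times in the hypothalamus). In CPM the hypothalamic value for Il1b was 1.27 times. Without cachectic mouse 1 the changes were smaller and every call was kept: S100a8 stood at log2 6.37 in the gastrocnemius and 6.22 in the hypothalamus, Ngp at 6.25 and 4.22, Mmp8 at 5.02 and 4.60, and S100a9 at 5.99 and 5.09. Normal mice weighed as well where counts were few: without normal mouse 3, which held 5 of the 6 normal S100a8 counts in the hypothalamus, the S100a8 change there was 9.47.

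Relative to S100a8, some genes kept a near-constant share in all 6 cachectic libraries and others did not. Of the counts of Retnlg and S100a8 together, Retnlg made up 17.7%, 20.4% and 15.5% in the gastrocnemius and 16.3%, 18.7% and 18.5% in the hypothalamus, and all of the 95% Wilson intervals overlapped. S100a9 made up 42.8%, 50.6% and 41.5% of its pair in the gastrocnemius and 44.6%, 50.9% and 43.4% in the hypothalamus, with mouse 2 the highest in both tissues. Ngp made up 30.8% and 31.7% in the gastrocnemius of mice 1 and 2, but 7.07% (95% interval 4.72 to 10.5) in that of mouse 3. In the hypothalamus it made up 33.7%, 39.0% and 22.8% (17.6 to 29.0), so mouse 3 had the lowest share in both tissues. Chil3 went the other way, with 11.3%, 13.4% and 24.3% in the gastrocnemius and 7.57%, 20.2% and 30.9% in the hypothalamus. Il1b was also relatively low in mouse 1, at 3.04% and 2.23%, against 7.39% to 14.5% in the other mice. These intervals cover counting error only, and each share is from 1 library.

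**Figure D4:**
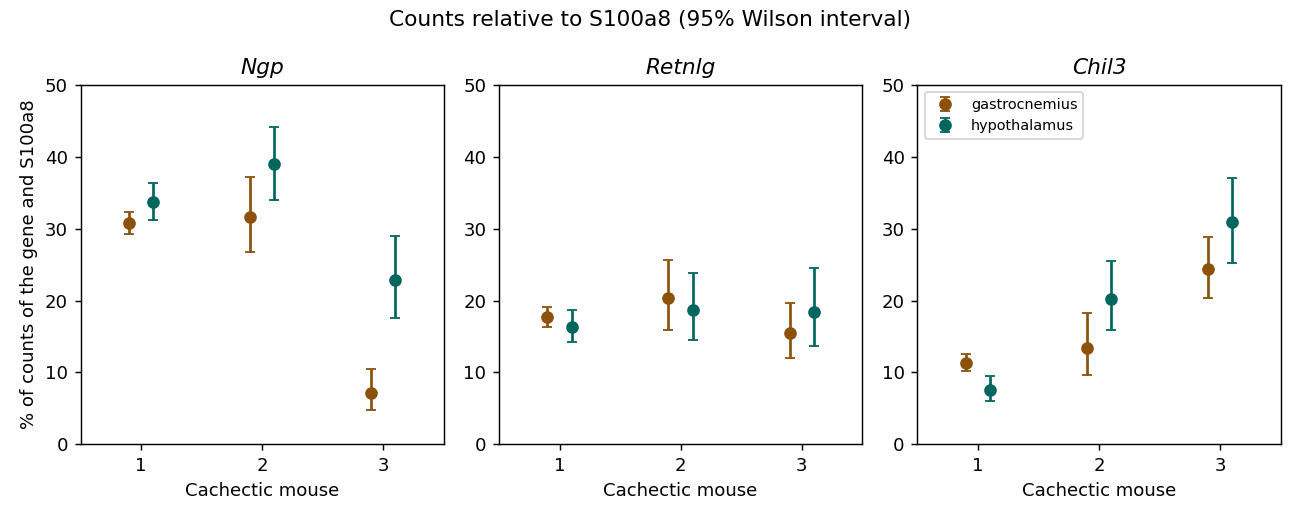
Counts of Ngp, Retnlg and Chil3 as a percentage of the counts of that gene and S100a8 together, in each cachectic mouse, for the gastrocnemius (brown) and the hypothalamus (green), with 95% Wilson intervals. Retnlg stays between 15.5% and 20.4%, Ngp is lowest in mouse 3 in both tissues (7.07% and 22.8%), and Chil3 is highest there (24.3% and 30.9%).

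The genes with the profile most like the mean of the 9 over the 12 libraries were sought among 12595 other named genes, by the smallest root mean square difference of log2(CPM + 0.5) centred on each gene's mean. Among the closest were BC100530 (0.555), Stfa2l1 (0.563), Slfn4 (0.596), Cd177 (0.603) and Cd300lf (0.633), against a median of 1.68 over all candidates. BC100530 and Stfa2l1 belong to the stefin A cysteine protease inhibitors, a cluster of near-identical copies, so the split of reads among them is uncertain. Stfa2l1 was at 33.6, 3.54 and 3.79 TPM in the cachectic gastrocnemius and 13.5, 2.05 and 0.62 TPM in the cachectic hypothalamus, and was listed at 0 in all 6 normal libraries. Cd177 encodes a surface glycoprotein of neutrophils and was at 2.40, 0.31 and 0.14 TPM in cachectic gastrocnemius and at 0 in the normal one.

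Of 19 other neutrophil granule genes listed, 10 could be tested in the gastrocnemius and 7 of these rose, and of 7 tested in the hypothalamus 4 rose; none was called lower. Some passed the minimum count only through the cachectic libraries and could only rise, such as Cd177 and Stfa2l1, at 0 in the normal gastrocnemius, so these counts are no support. Lcn2, lipocalin 2, an iron-scavenging protein also made by many other cells, was at 189, 31.4 and 111 TPM in cachectic and at most 0.82 TPM in normal gastrocnemius. Hypothalamic Lcn2 was at 58.3, 24.7 and 40.2 TPM against at most 0.17 TPM. Mouse 3 was thus above mouse 2 for Lcn2 in both tissues, unlike the 9 genes in the hypothalamus. Pglyrp1, a peptidoglycan-binding granule protein, rose by 2.72 ± 0.78 SE on the log2 scale in the gastrocnemius (adjusted p = 0.02491) and by 0.85 ± 0.20 SE in the hypothalamus (adjusted p = 0.02977).

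Of the genes of the earliest granules, filled in marrow precursors, several were near 0. Over the 12 libraries Elane, neutrophil elastase, reached at most 0.15 TPM, Ctsg, cathepsin G, 0.10 TPM, Ms4a3 0.04 TPM and Mpo, myeloperoxidase, 0.52 TPM. Prtn3, proteinase 3, was higher, at 1.89 to 2.93 TPM in the 6 hypothalamus libraries and 0.05 to 0.52 TPM in the gastrocnemius, and was not called in the hypothalamus (log2 0.23, adjusted p = 0.5637, edgeR). Of the 7 genes on that list, 1 was tested in the gastrocnemius and 4 in the hypothalamus, and the one called was Serpinb1a, an inhibitor of these proteases, which fell in both tissues (log2 -1.10 and -1.33, adjusted p = 0.01381 and 0.002196, edgeR). It was at 0.76 to 1.82 TPM in cachectic and 1.68 to 3.22 TPM in normal gastrocnemius, so the TPM ranges overlapped there.

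Among 22 surface receptors of neutrophils, 9 of 13 tested rose in the gastrocnemius and 7 of 14 in the hypothalamus, and none fell. Csf2rb, the shared beta chain of the receptors for granulocyte-macrophage colony-stimulating factor, interleukin 3 and interleukin 5, was at 3.39, 2.36 and 2.17 TPM in cachectic and 0.34, 0.28 and 0.14 TPM in normal gastrocnemius. Like Csf3r, it changed more in the gastrocnemius than in the hypothalamus (interaction log2 2.13 ± 0.44 SE, adjusted p = 0.003233). Pirb, an inhibitory receptor of myeloid cells, rose in both tissues, by 1.84 and 2.96 on the log2 scale (adjusted p = 0.02235 and 0.004262, edgeR).

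Of 18 chemoattractants and growth factors matched, 7 were tested in each tissue; 2 rose and 1 fell in the gastrocnemius, and 4 rose in the hypothalamus. Cxcl1 and Cxcl2, ligands of CXCR2, were at 0.76 TPM or less in every library and Csf3, the ligand of the Csf3r receptor, at 0.05 TPM or less. Cxcl1 was not absent: it was at 0.49, 0.45 and 0.76 TPM in cachectic hypothalamus, and its change was not tested within either tissue. Cxcl5, another ligand of CXCR2, rose in the hypothalamus by 1.19 ± 0.28 SE on the log2 scale (adjusted p = 0.02715, edgeR). In the hypothalamus C3, the central complement component, was at 6.98, 3.13 and 7.11 TPM in cachectic and 1.85, 2.22 and 0.73 TPM in normal mice (log2 1.84 ± 0.22 SE, adjusted p = 0.0009958). Cxcl12, the chemokine that retains neutrophils in the marrow, fell in the gastrocnemius from 17.2 to 21.4 TPM in normal mice to 12.4 to 14.2 TPM in cachectic mice (log2 -1.02, adjusted p = 0.001515, edgeR).

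Of 15 adhesion and transmigration genes, 5 rose and 2 fell among 14 tested in the gastrocnemius, and 2 rose and 3 fell among 13 in the hypothalamus. Beside this and every other list count stand the shares over all genes tested. In the gastrocnemius 19.6% were called higher and 18.3% lower, and in the hypothalamus 3.94% and 4.83%. Whether any list departed from these shares was not tested. Icam1, the endothelial ligand of the neutrophil beta-2 integrins, rose in both tissues. It was at 2.73, 1.90 and 2.29 TPM in cachectic and 0.95, 0.95 and 0.99 TPM in normal gastrocnemius, and at 1.83, 1.71 and 1.54 TPM against 0.38, 0.57 and 0.51 TPM in the hypothalamus. Its log2 change was larger in the hypothalamus (interaction log2 -0.91 ± 0.25 SE, adjusted p = 0.01801). Selp, P-selectin, on which leukocytes roll, was at 4.11, 3.81 and 3.45 TPM in cachectic gastrocnemius against 0.60, 0.21 and 0.21 TPM, and could not be tested in the hypothalamus.

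On the receiving side of interleukin 1, Il1r1, the signalling receptor of Il1b, rose in both tissues. It was at 2.85, 2.67 and 2.08 TPM in cachectic and 1.44, 1.51 and 0.99 TPM in normal gastrocnemius, and at 1.86, 2.02 and 1.91 TPM against 0.69, 0.58 and 0.57 TPM in the hypothalamus. The log2 change was 0.58 ± 0.16 SE in the gastrocnemius and 1.67 ± 0.12 SE in the hypothalamus (adjusted p = 0.02299 and 6.807e-05), and the difference between tissues was called (adjusted p = 0.001425). Over the 20 matched genes of the pathway, 5 rose and 2 fell of 15 tested in the gastrocnemius, and 2 rose and 1 fell of 17 tested in the hypothalamus. Of 8 receptors and related genes for S100A8 and S100A9, 6 were tested in the gastrocnemius and 8 in the hypothalamus, and edgeR called none in either, with 2 (Tlr4 and Cd14) and 3 (Cd33, Tlr2 and Cd14) at an unadjusted p under 0.05.

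Of 11 transcription factors and signal genes of granulocytes, 5 rose and 1 fell among 9 tested in the gastrocnemius, and 2 rose among 9 in the hypothalamus. Cebpd, a C/EBP factor that many other cells also induce in inflammation, was at 120, 59.4 and 88.5 TPM in cachectic and 3.70, 2.49 and 2.97 TPM in normal gastrocnemius. In the hypothalamus it was at 3.47, 2.84 and 2.92 TPM against 1.10, 1.20 and 1.03 TPM. Both changes were called (log2 4.51 and 1.46, adjusted p = 8.791e-05 and 0.0003706, edgeR).

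Markers of other blood cells moved too. Of 9 erythroid genes, 5 rose and 1 fell among 7 tested in the gastrocnemius, and 6 rose among 8 in the hypothalamus. Their summed TPM was 2460 to 3068 in cachectic and 576 to 928 in normal gastrocnemius, and 1614 to 2222 against 799 to 1219 in the hypothalamus. Hba-a1, an alpha-globin gene, was at 810, 599 and 643 TPM in cachectic and 128, 165 and 228 TPM in normal gastrocnemius, and at 465, 505 and 387 TPM against 176, 231 and 162 TPM in the hypothalamus. Hba-a1 rose 2.79-fold and 2.35-fold, Hbb-bs 2.92-fold and 2.06-fold and Hba-a2 2.42-fold and 1.98-fold (edgeR, TMM factors). The TPM values of the gastrocnemius give larger folds. Over all genes there the median log2 change was 0.248 on log2(TPM + 0.5) and -0.002 with TMM. In the gastrocnemius the 3 cachectic mice lay between 599 and 810 TPM for Hba-a1 and between 34.0 and 272 TPM for S100a8. The part of blood left in the tissues in the neutrophil transcripts was not tested.

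Of 10 monocyte markers, 7 were tested in each tissue; 4 rose and 1 fell in the gastrocnemius and 5 rose in the hypothalamus, Chil3 being one of them in both. The summed TPM of the monocyte list was 89.5 to 98.5 in cachectic and 68.4 to 124 in normal gastrocnemius, and 40.6 to 45.3 against 27.6 to 36.0 in the hypothalamus. Of 11 macrophage markers tested in each tissue, 1 was called lower and 0 higher in the gastrocnemius. The summed TPM of the list there was 27.4, 90.6 and 96.6 in the cachectic mice, from lowest to highest, and 36.0 to 51.6 in normal mice. In the hypothalamus 4 (C1qa, C1qb, C1qc and Mertk) rose, and the sum was 112 to 126 TPM in cachectic and 89.9 to 91.9 TPM in normal mice. Platelet markers were not called in either tissue by edgeR, with 3 tested in each and none at an unadjusted p under 0.05. Of 5 eosinophil genes, Epx and Ccr3 were at 0 in all 6 gastrocnemius libraries. The 5 summed to at most 0.21 TPM in cachectic and 0.06 TPM in normal gastrocnemius. In the hypothalamus they summed to 0.17 to 0.34 TPM against 0.15 to 0.23 TPM. The T and NK cell list summed to at most 0.83 TPM in the gastrocnemius. In the hypothalamus it summed to 1.89 to 3.42 TPM in cachectic against 6.18 to 8.21 TPM in normal mice. Most of that was 1 gene, Trac, at 1.72, 3.26 and 2.35 TPM against 7.87, 6.96 and 5.95 TPM. Trac was the only gene of the list tested there (log2 -1.43, adjusted p = 0.002984, edgeR). Mast cell and basophil markers fell in the gastrocnemius, 5 of 5 tested (Cpa3, Mcpt4, Cma1, Tpsb2 and Kit). Their list summed there to 8.77 to 12.7 TPM in normal and 1.62 to 2.65 TPM in cachectic mice. In the hypothalamus it summed to 6.54 to 10.85 TPM in normal and 11.1 to 12.4 TPM in cachectic mice. There Cpa3, Mcpt4, Cma1 and Tpsb2 were each at 0.51 TPM or less in every library. The 3 listed genes beyond these and Kit were at 0 in normal hypothalamus, so most of the normal sum was Kit. The interaction was called lower in the gastrocnemius for the same 5 genes, against 14.0% of all genes. Only Kit was tested there, and it was not called (log2 0.29, adjusted p = 0.3534, edgeR). Among B and plasma cell markers Ighm fell in both tissues (log2 -5.52 and -0.68, adjusted p = 1.748e-05 and 0.04864, edgeR). The part of these cells in the levels of S100a8, S100a9, Il1b and Chil3 was not tested.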

How the data were processed

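The submitters' processing notes name the build GRCm38 and the tools STAR (2.7.9a), RSEM (1.3.3) and Trim Galore (0.6.6); the annotation release and strand setting are not given in the sources used here. Libraries were directional and paired-end, per the labels' protocols. The deposited tables hold RSEM expected counts, estimated fragments per gene, and the deposited TPM values. Names came from GENCODE M21 for 52135 of 55416 identifiers. Counts were rounded and tested with edgeR 4.0.16 (R 4.3.3): filterByExpr minimum, TMM factors, quasi-likelihood test, Benjamini-Hochberg adjustment, 6 libraries per tissue (14265 and 17961 genes) or all 12 for contrasts between tissues (18746 genes). Alternatives were library totals, DESeq2 1.42.0, no filter, at least 1 CPM in 3 libraries, limma 3.58.1 on log2(TPM + 0.5) or log2(TPM + 0.1), a replicate block, and leaving out each mouse. Fits were tested on simulated data. Replicates within a group were separate mice, and no pair agreed within sampling noise. The 2 tissues of a numbered mouse are paired by the labels; correlations of their deviations were -0.022 to 0.086.

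The 9 genes and all lists were chosen with earlier results of these data known. Named beyond the 9 were the called list genes with the smallest p, up to 4 a list, the most abundant of 5 lists, and the 6 most similar profiles. A gene that this rule took is not reported here. Stfa2, Ltf, Camp, Elane, Ctsg, Ms4a3, Mpo, Prtn3, Kit, Cxcl1, Cxcl2, Cxcl5, Csf3, Epx, Ccr3, Tlr2, Tlr4, Cd14 and Cd33 were chosen after their values were seen. List counts were made with TMM scaling only.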

Additional observations from a re-analysis of the deposited data

Results flagged for a closer look

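For Csf3r the cachectic minus normal change differed between the tissues, with a log2 difference of 3.24 (gastrocnemius minus hypothalamus) by the interaction test over all 12 libraries. Its levels were 1.05 to 5.36 TPM in cachectic and 0.07 to 0.20 TPM in normal gastrocnemius, and 1.99 to 4.33 TPM in cachectic and 1.89 to 2.21 TPM in normal hypothalamus. In TPM the cachectic levels of the tissues overlapped and the normal levels did not.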

How the results depend on the processing

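Of the 9 genes, all 9 were called in the gastrocnemius when any 1 library was left out, and 7 to 9 in the hypothalamus. Over all genes 1768 to 2779 and 283 to 543 were then called higher. In the hypothalamus 4 were called with a minimum of 1 CPM in 3 libraries, where 5 could be tested, and 4 on log2(TPM + 0.5). At these settings 758 of 15553 and 155 of 21566 genes were called higher. The interaction called 1 gene with any 1 mouse left out and 0 on log2(TPM + 0.5). Over all genes it called 1492 to 2387 and 3869 in that direction. Between tissues in cachectic mice, 7 calls higher in muscle became 1 with library totals, 4 with DESeq2, 1 and 0 with TPM (pseudocounts 0.5 and 0.1), and 5 to 8 without 1 mouse. Over all genes, 6956 such calls became 3490, 6875, 3793 and 3773, and 6676 to 6986, in the same order. In normal mice, 0 calls higher in muscle became 1 with DESeq2, 2 with the mouse as a replicate block, and 0 to 1 without 1 mouse. Over all genes, 6687 such calls became 6703, 6508, and 6247 to 6801, in the same order. A replicate block on the number within a tissue, which the labels do not give as a pairing (correlations of deviations -0.08 to 0.138), left 9 and 8 calls; over all genes it gave 506 higher and 605 lower in the hypothalamus, against 708 and 867.

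Reversed differences were none of them called. In the interaction they were S100a8 at -1.16 and Chil3 at -1.12 without normal mouse 3 (up to 0.61 and 5.46 without another mouse), Retnlg at 0.58 and 0.074 and Cxcr2 at 0.42 and 0.43 with TPM (pseudocounts 0.5 and 0.1). Between tissues in cachectic mice Csf3r was at -0.25 with totals and at -0.34 and -0.42 with TPM. Between tissues in normal mice S100a9 was at -0.47 with totals and -0.35 and -0.66 with TPM, Mmp8 at -0.0090 and -0.036 with TPM, Il1b at -1.05 with totals and -0.24 and -0.68 with TPM, and Chil3 at 0.14 and 0.35 with TPM and 3.20 without normal mouse 3 (-3.39 without normal mouse 1). The cause was not tested. Over all genes in the gastrocnemius, 2801 higher and 2616 lower calls became 3957 and 1662 with totals and 4358 and 939 with TPM (pseudocount 0.5). Higher and lower calls in the hypothalamus were 1307 and 1291 without a filter and 155 and 146 with TPM. Normal libraries held 0 to 13 counts of each gene in a tissue, except Csf3r, which limits every fold change.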

Other observations

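Granule genes outside the 9 did not keep one ratio to S100a8 across the cachectic mice; Ltf, Camp and Stfa2 were chosen after their values were seen. Ltf, lactoferrin, made up 9.44% and 10.8% of its counts and those of S100a8 in the gastrocnemius of mice 1 and 2, and 1.36% (95% Wilson interval 0.532 to 3.46) in mouse 3. In the hypothalamus it made up 13.2%, 24.2% and 8.62%, lowest again in mouse 3, and Camp, the cathelicidin gene, was lowest there too, with 1 and 2 counts. Ltf and Camp encode proteins of the specific granules of neutrophils. Lcn2 went the other way, at 66.0%, 71.1% and 88.9% in the gastrocnemius and 54.4%, 66.3% and 90.0% in the hypothalamus. Stfa2, a stefin A gene with near-identical copies, was highest in mouse 1 in both tissues, at 7.38% against 1.43% and 3.34%, and at 8.82% against 0.930% and 4.79%.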
